A study of Rattus norvegicus with 6 samples.

Results

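The 10 genes described here encode proteins of elastic fibres and their microfibrils: Eln, Fbn1, Fbln5, Efemp2, Efemp1, Fbln1, Fbln2, Mfap2, Mfap4 and Emilin1. They were chosen by symbol, and each symbol matched 1 gene, so that they make up 10 of the 19616 genes of the table. Of these, 9 were among the 14864 genes whose mean over the 6 rats reached 0.1 FPKM (fragments per kilobase of transcript scaled to the mapped fragments of the library), which were the genes tested. Mfap4 was below that mean.

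The livers came from male SD rats, and each library held the RNA of the whole liver tissue of 1 rat after removal of ribosomal RNA. The FL group, with rats FL2, FL5 and FL12, had received CCl4, a chemical that damages hepatocytes, mixed with an equal volume of olive oil. Over 5 weeks it was injected into the peritoneal cavity 2 times a week, each time with 2 mL/kg. The CL group, with rats CL5, CL6 and CL7, had received the same volume of olive oil alone. The 6 rats are separate animals taken from larger groups, and how they were picked for sequencing is not given in the sources used here.

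The tissue label was checked against 8 hepatocyte markers. Alb, the serum albumin gene and the most abundant of them, read 33392 FPKM in CL5, 31431 in CL6 and 31992 in CL7, against 24149 in FL2, 25052 in FL5 and 25209 in FL12. All 8 markers were present in every rat, with a lowest value of 379 FPKM, that of Cps1 in FL12. None of the 8 was called in either direction by limma, and 1 was higher and 0 lower at an unadjusted p under 0.05. Alb, Ttr and Apob nevertheless had every FL value below every CL value, and Apoa1 and Tf every FL value above every CL value. For Alb the SE from limma was 0.98 on the log2 scale, far wider than the spread of the rats within each group. Relative depth was read from the short U6 genes, where the commonest value above 0, taken as the worth of 1 read, was 0.21 FPKM in CL5, 0.32 in CL6 and 0.25 in CL7, against 0.31 in FL2, 0.28 in FL5 and 0.31 in FL12. The most abundant gene of a list is the gene with the highest mean over the 6 rats. Where values of 3 rats are listed by group, they stand in the order CL5, CL6 and CL7 or FL2, FL5 and FL12. By the measure from U6 genes CL5 was the most deeply sequenced library and CL6 had 0.656 of its depth.

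An elastic fibre consists of a core of cross-linked elastin laid down on a scaffold of fibrillin microfibrils. Short fibulins carry tropoelastin and the lysyl oxidases to the scaffold, and microfibril-associated glycoproteins and EMILINs sit on the microfibrils or between them and the elastin. In healthy liver elastic fibres lie mainly in portal tracts and around vessels, and elastin accumulates in the septa of fibrotic livers.

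Differences between the groups were tested with limma on log2(FPKM + 0.1) over the 14864 genes, and a gene was called when its adjusted p was under 0.05 and its fold change at least 2. Of the 10 genes, 5 were called higher in the FL group, namely Eln, Fbn1, Efemp2, Fbln1 and Mfap2, beside 9.29% of all genes tested. None was called lower, beside 0.935% of all genes tested, and at an unadjusted limma p under 0.05 the counts were 7 higher, beside 31.5% of all genes tested, and 0 lower, beside 4.04%. Of the 9 genes tested, 6 had every FL value above every CL value, beside 35.7% of all genes tested, and 0 had every FL value below every CL value, beside 4.78%. The median log2 fold change of the 9 genes was 1.63, and that of all genes tested was 0.29, with 77.9% of them positive. Because no scaling between rats beyond that to the fragments of each library is described for the values, that general shift of 0.29 was also subtracted from each gene's fold change. With quantile normalization, which takes the general shift to -0.04, the same 5 of the 10 genes were called, while the calls over all genes moved from 1381 higher and 139 lower to 453 higher and 231 lower. In whole liver, more cells of a type and more RNA per cell cannot be told apart.

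**Figure D1:**
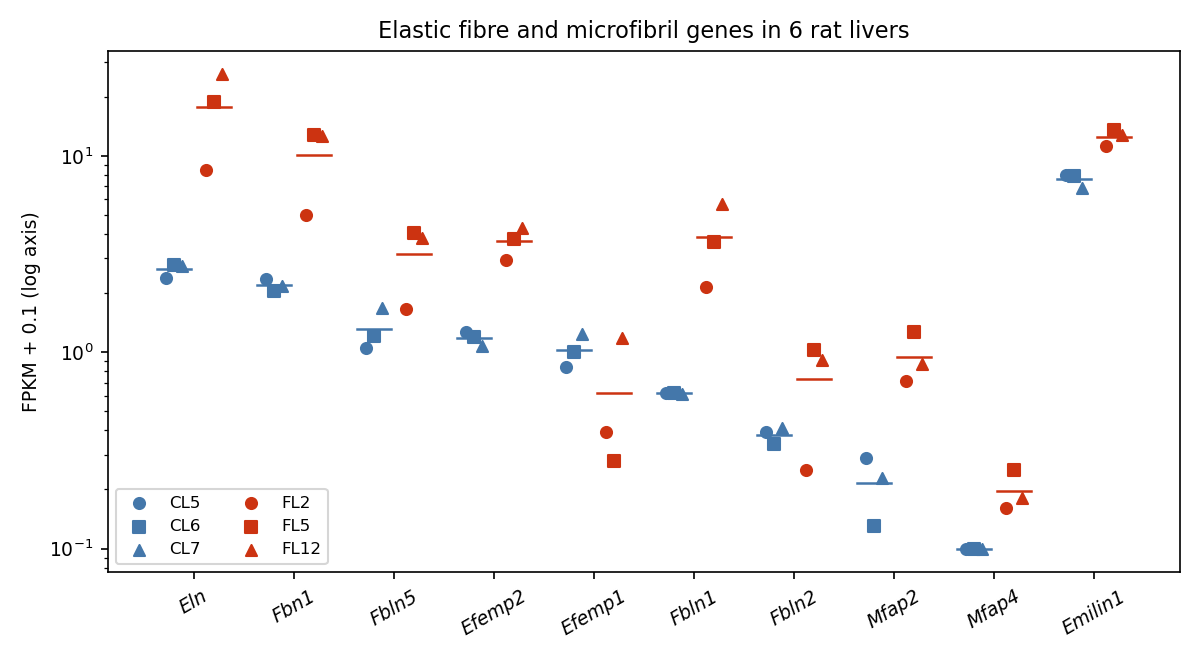
FPKM + 0.1 of the 10 genes on a log axis, with 1 point per rat, CL rats in blue and FL rats in red, and a line at the mean of each group. Eln lies between 2.28 and 2.69 FPKM in the CL rats and between 8.36 and 25.85 FPKM in the FL rats, and Mfap4 is listed at 0 in all 3 CL rats.

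Elastin, the product of Eln, forms the elastic core. Eln, on chromosome 12, read 2.28 FPKM in CL5, 2.69 in CL6 and 2.65 in CL7, against 8.36 in FL2, 18.58 in FL5 and 25.85 in FL12. The groups did not overlap, and FL2 was well below the other FL rats. Means were 2.54 ± 0.226 FPKM (SD, n = 3) in the CL group and 17.6 ± 8.79 FPKM (SD, n = 3) in the FL group. The log2 fold change was 2.60 with a 95% interval from 1.77 to 3.44 (limma with Benjamini-Hochberg adjustment, adjusted p = 0.00493), or 2.32 above the median of all genes. Fold changes are on the log2(FPKM + 0.1) scale, which understates the change of genes with low values. With this pseudocount Eln had the largest fold change of the 9 genes, at place 101 from the top among all genes tested.

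Fibrillin-1, encoded by Fbn1 on chromosome 3, is the main structural protein of the microfibril. It read 2.26 FPKM in CL5, 1.94 in CL6 and 2.08 in CL7, against 4.90 in FL2, 12.63 in FL5 and 12.47 in FL12. FL5 and FL12 were close to each other, FL2 was lower, and no FL rat overlapped the CL group. The log2 fold change was 2.08 with an SE of 0.34 (limma, adjusted p = 0.00792), or 1.80 above the median of all genes.

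The relation of elastin to fibrillin-1 transcripts was compared within each rat. Eln stood at 1.01, 1.39 and 1.27 times the FPKM of Fbn1 in CL5, CL6 and CL7 and at 1.71, 1.47 and 2.07 times in FL2, FL5 and FL12. Every FL rat had a higher ratio than every CL rat, although FL5 was only slightly above CL6. The log2 ratio was 0.27 ± 0.23 (SD, n = 3) in the CL group and 0.79 ± 0.25 (SD, n = 3) in the FL group, a difference of 0.52. The exact two-sided permutation p over the 6 rats was 0.1, the smallest that 3 rats against 3 can give.

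Of the short fibulins, Efemp2, on chromosome 1, encodes fibulin-4, which brings lysyl oxidase together with tropoelastin and is required for elastic fibre formation. Efemp2 read 1.17 FPKM in CL5, 1.09 in CL6 and 0.98 in CL7, against 2.85 in FL2, 3.68 in FL5 and 4.2 in FL12. Both groups were tight, and they lay far apart. Its log2 fold change of 1.63 had an SE of 0.19 (limma, adjusted p = 0.00348), the lowest adjusted p of the 9 genes, and stood 1.34 above the median of all genes.

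Fbln5, on chromosome 6, encodes fibulin-5, which binds tropoelastin and integrins and guides elastin onto microfibrils. Its values were 0.95 FPKM in CL5, 1.11 in CL6 and 1.58 in CL7, against 1.56 in FL2, 3.93 in FL5 and 3.71 in FL12. FL2 lay just under CL7, while FL5 and FL12 were above all CL rats. Fbln5 had a log2 fold change of 1.19 with a 95% interval from 0.37 to 2.02, and the gene was not called (limma, adjusted p = 0.0533). Without FL2 the log2 fold change was 1.61 and the gene was called (adjusted p = 0.00683). It was also called when only genes with a mean of 1 FPKM or more were tested (adjusted p = 0.0475). The log2 fold change was 0.76 with quantile normalization, 0.83 with a pseudocount of 1, 0.98 with median scaling and 0.97 without FL5, all under the fold limit and with no call. The adjusted p of Fbln5 over 15 alternatives ran from 0.00683 to 0.190.

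Efemp1, on chromosome 14, encodes fibulin-3, a short fibulin of basement membranes and connective tissue. Among the 9 genes tested it alone had a negative fold change. Efemp1 read 0.74 FPKM in CL5, 0.90 in CL6 and 1.14 in CL7, against 0.29 in FL2, 0.18 in FL5 and 1.08 in FL12. FL2 and FL5 were below all CL rats, whereas FL12 lay within their range. The log2 fold change was -1.0 with a 95% interval from -2.18 to 0.17 (limma, adjusted p = 0.196), or -1.29 relative to the median of all genes. Without FL12 it was -1.62 and Efemp1 was called lower (adjusted p = 0.0275), while it was -0.58 without FL5, -0.39 with a pseudocount of 1 and -1.56 with quantile normalization, with no call, and its adjusted p over 14 alternatives ran from 0.0275 to 0.459. The fold change was negative under both scalings tried.

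A like split between FL12 and the other FL rats appeared in 4 of the 6 markers of mesothelium, the cell layer on the liver surface, a pattern singled out after the values were seen. Msln, which encodes mesothelin, read 1.80 FPKM in CL5, 1.83 in CL6 and 1.91 in CL7, against 0.40 in FL2, 0.65 in FL5 and 2.31 in FL12. Upk3b, a uroplakin gene, read 0.45, 0.98 and 0.85 FPKM in the CL rats against 0.25, 0.20 and 1.12 FPKM in the FL rats. In both genes FL12 was the highest of the 6 rats and FL2 and FL5 were the lowest, and in Upk1b and Lrrn4 FL12 was above FL2 and FL5 too. Over the list of 6 mesothelial markers the summed level was 6.91, 6.29 and 8.82 FPKM in the CL rats against 3.71, 4.24 and 7.38 FPKM in the FL rats. Gpm6a, the most abundant, went the other way, with FL12 the lowest FL rat at 2.37 FPKM and FL2 and FL5 at 2.70 FPKM, against 2.15 to 5.41 FPKM in the CL rats. Wt1 read 0.18, 0.43 and 0.54 FPKM in the FL rats, with FL5 near FL12, and had a positive log2 fold change of 1.37 (adjusted p = 0.0927). None of the 6 was at 0 in any rat, and limma called none of them in either direction, with 1 higher and 0 lower at an unadjusted p under 0.05. The split was not limited to mesothelial markers. Among the bile duct markers, Krt19 read 0.46 FPKM in FL2, 0.39 in FL5 and 1.06 in FL12, against 0.55, 0.62 and 0.60 FPKM in the CL rats. Krt7 read 0.13, 0.09 and 0.47 FPKM in the FL rats against 0.32, 0.62 and 0.35 FPKM in the CL rats. Sox9, Cftr and Epcam also had FL12 as the highest FL rat, but in none were both FL2 and FL5 below all CL rats. For Epcam, FL5 at 6.81 FPKM was nearer to FL12 at 7.8 than to FL2 at 4.27. Spp1, the remaining marker of that list, was highest in FL5, with 7.34, 60.59 and 31.12 FPKM in the FL rats. The part of mesothelial or bile duct cells in the values of Efemp1 was not tested.

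Fbln1 and Fbln2 encode the larger fibulins, which bind fibronectin, elastin and basement membrane proteins. Fbln1, on chromosome 7, had nearly the same value in the 3 CL rats, 0.52 FPKM in CL5, 0.52 in CL6 and 0.51 in CL7, against 2.04 in FL2, 3.56 in FL5 and 5.61 in FL12. The lowest FL rat was far above every CL rat. For Fbln1 the log2 fold change was 2.53 with an SE of 0.33 (limma, adjusted p = 0.00465), or 2.24 above the median of all genes. With a pseudocount of 1 it was 1.57 and the gene was still called (adjusted p = 0.00897).

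Fbln2, on chromosome 4, read 0.29 FPKM in CL5, 0.24 in CL6 and 0.31 in CL7, against 0.15 in FL2, 0.92 in FL5 and 0.81 in FL12. FL2 was the lowest of all 6 rats, and FL5 and FL12 were the highest. The log2 fold change of 0.70 had a 95% interval from -0.53 to 1.93 and was not called (limma, adjusted p = 0.377). Without FL2 it was 1.35 and the gene was called higher (adjusted p = 0.0162), while it was 0.33 without FL5, 0.41 without FL12, 0.31 with a pseudocount of 1 and 0.12 with quantile normalization, with no call, and its adjusted p over 14 alternatives ran from 0.0162 to 0.898.

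Mfap2 encodes MAGP-1, a small glycoprotein that binds fibrillin and is a constitutive part of most microfibrils. On chromosome 5, it read 0.19 FPKM in CL5, 0.03 in CL6 and 0.13 in CL7, against 0.61 in FL2, 1.17 in FL5 and 0.77 in FL12. All FL rats were above all CL rats, at levels that rest on few reads in the CL group. The log2 fold change was 2.17 with an SE of 0.40 (limma, adjusted p = 0.0119), or 1.88 above the median of all genes. The call was lost without FL5, where the log2 fold change was 1.94 and the adjusted p 0.0516. It was also lost with a pseudocount of 1, where the log2 fold change was 0.72. Over the 14 alternatives in which it was tested its adjusted p ran from 0.0115 to 0.0516.

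Mfap4, on chromosome 10, encodes a microfibril-associated protein with a fibrinogen-like domain that binds elastin and fibrillin. It was listed at 0 in CL5, CL6 and CL7 and read 0.06 FPKM in FL2, 0.15 in FL5 and 0.08 in FL12. Every FL rat had a value above 0, but all were low and the gene was not tested, so no fold is given.

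Emilin1, on chromosome 6, encodes an interface glycoprotein found between elastin and the microfibrils. It read 7.89 FPKM in CL5, 7.82 in CL6 and 6.74 in CL7, against 11.10 in FL2, 13.38 in FL5 and 12.64 in FL12. The groups did not overlap and the spread within each was small. Its log2 fold change of 0.72 had an SE of 0.13 (limma, adjusted p = 0.010). It was below the fold limit of 2, so the gene was called only with no limit on the fold, and it stood 0.43 above the median of all genes.

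**Figure D2:**
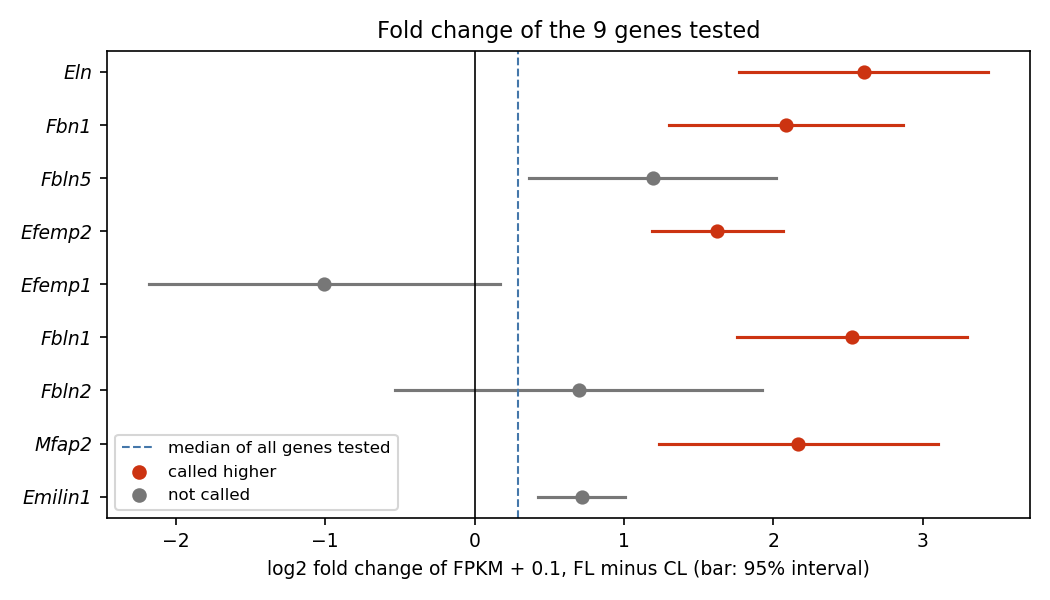
Log2 fold change of FPKM + 0.1, FL minus CL, of the 9 genes tested, with bars for the 95% interval and a dashed line at the median of all genes tested, 0.29. The 5 genes called higher, in red, lie between 1.63 and 2.60, and Efemp1 lies at -1.0 with an interval that reaches 0.17.

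In the CL group the order of the mean levels, per transcript length, was Emilin1 at 7.48 FPKM, Eln at 2.54, Fbn1 at 2.09, Fbln5 at 1.21, Efemp2 at 1.08, Efemp1 at 0.927, Fbln1 at 0.517, Fbln2 at 0.280, Mfap2 at 0.117 and Mfap4 at 0. Fbln5, Efemp2 and Efemp1 overlapped as neighbours in that order, and the others did not overlap their neighbours. In the FL group the order was Eln at 17.6 FPKM, Emilin1 at 12.4, Fbn1 at 10, Fbln1 at 3.74, Efemp2 at 3.58, Fbln5 at 3.07, Mfap2 at 0.850, Fbln2 at 0.627, Efemp1 at 0.517 and Mfap4 at 0.0967. There the values of neighbours overlapped except between Fbln5 and Mfap2 and between Efemp1 and Mfap4. The order of Eln and Emilin1 in the FL group was therefore within the spread between rats.

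The summed level of the 10 genes was nearly equal in the CL rats, at 16.29 FPKM in CL5, 16.34 in CL6 and 16.12 in CL7. It was 31.92 FPKM in FL2, 58.18 in FL5 and 67.22 in FL12. Emilin1 made up 48.4%, 47.9% and 41.8% of that sum in CL5, CL6 and CL7 and 34.8%, 23.0% and 18.8% in FL2, FL5 and FL12. Eln made up 14.0%, 16.5% and 16.4% in the CL rats and 26.2%, 31.9% and 38.5% in the FL rats, in the same order. Emilin1 had the largest share in every CL rat and in FL2, and Eln in FL5 and FL12. The share of Fbn1 ranged from 11.9% to 13.9% in the CL rats and from 15.4% to 21.7% in the FL rats.

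**Figure D3:**
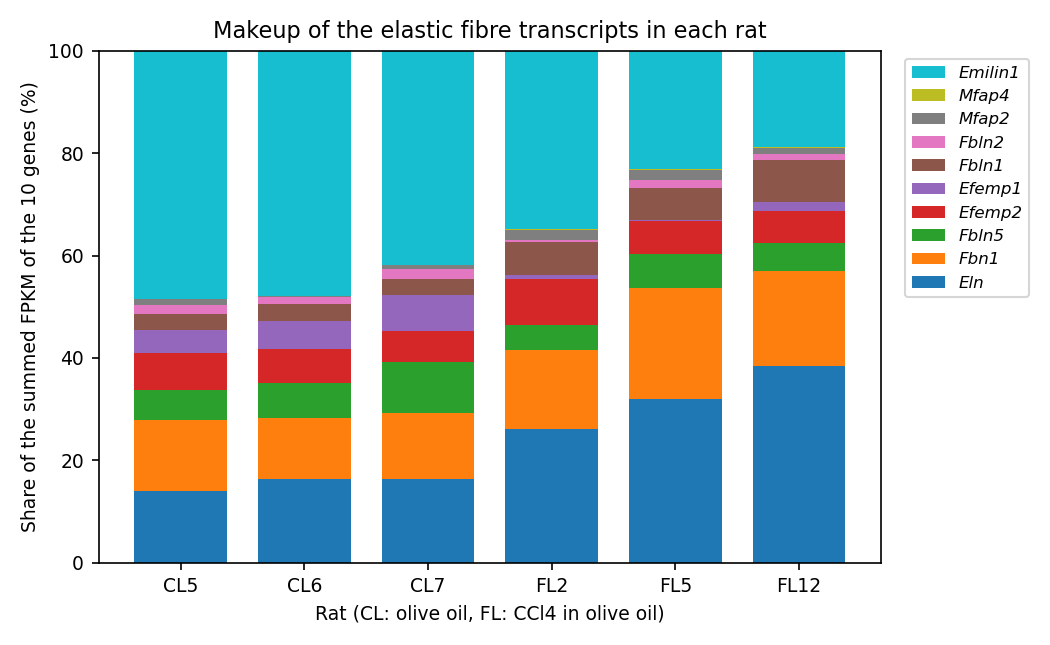
Stacked bars of each gene's share, in percent, of the summed FPKM of the 10 genes in each rat. Eln takes 14.0% to 16.5% in the CL rats and 26.2% to 38.5% in the FL rats, and Emilin1 takes 41.8% to 48.4% and 18.8% to 34.8%.

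FL2 had the lowest value of the 3 FL rats in 9 of the 10 genes, the exception being Efemp1, which was lowest in FL5. FL2 was also the lowest FL rat in 51.2% of all genes tested and in 67.5% of the genes called higher. It was the lowest FL rat in Col1a1, Col3a1 and Acta2 too, but the highest in Fn1. Col1a1, a chain of type I collagen, read 2.12 FPKM in CL5, 3.77 in CL6 and 2.12 in CL7, against 17.0 in FL2, 101.22 in FL5 and 73.73 in FL12. Col3a1, the type III collagen gene, read 46.54, 51.80 and 48.65 FPKM in the CL rats against 140.46, 341.67 and 338.60 FPKM in the FL rats. Both were called, with log2 fold changes of 4.24 and 2.37 (limma, adjusted p = 0.00519 and 0.00490). Acta2, the smooth muscle actin gene of myofibroblasts, read 3.85, 2.62 and 2.68 FPKM in the CL rats against 3.87, 17.32 and 9.59 FPKM in the FL rats. FL2 was thus level with CL5 for Acta2, while Eln and Fbn1 in FL2 were above every CL rat. Acta2 was not called (log2 fold change 1.5, adjusted p = 0.0609) and was called without FL2, with an adjusted p over the alternatives from 0.00607 to 0.172.

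Markers of cells that can make elastic fibre proteins were set beside these values. Of 9 contractile smooth muscle and myofibroblast markers, 1 was called higher, Lmod1, and none lower. Their summed level was 32.06 FPKM in CL5, 30.98 in CL6 and 28.06 in CL7, against 32.93 in FL2, 89.79 in FL5 and 62.26 in FL12, with Tagln as the most abundant. FL2 lay near the CL rats in that sum, as it did for Acta2. Of 10 stellate cell markers tested out of 11, 3 were called higher, Des, Cygb and Pdgfrb, and 1 lower, Ecm1. Of 7 portal fibroblast markers tested out of 9, with Clec3b not analysed here, 3 were called higher, Pi16, Entpd2 and Cdh11, and none lower. The summed level of the portal list, led by Dpt, was 93.36, 35.95 and 65.67 FPKM in the CL rats against 81.75, 74.62 and 59.49 FPKM in the FL rats. That sum overlapped between the groups, but without Dpt it was 9.72, 10.43 and 10.86 FPKM in the CL rats against 32.48, 16.02 and 18.77 FPKM in the FL rats, without overlap. Most of the sum without Dpt was Gas6, which was not called. Gas6 read 8.42, 8.81 and 9.56 FPKM in the CL rats against 29.99, 10.73 and 13.36 FPKM in the FL rats. Thy1, Entpd2, Cd34, Pi16 and Cdh11 were lowest in FL2 among the FL rats, Entpd2 only slightly, at 0.76 FPKM against 0.78 in FL12. Gli1, which was not tested, read 0.02, 0.05 and 0.03 FPKM in the FL rats, too low to put them in order. All FL values of Des, Cygb, Pdgfrb, Pi16, Entpd2 and Cdh11 lay above all CL values, whereas those of the stellate markers Ecm1 and Gfap lay below them, Ecm1 being called lower and Gfap not called. No marker of these 3 lists was at 0 in any rat, and their part in the values of the 10 genes was not tested.

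Further genes of the same families and their partners were read from the same comparison. The counts of calls in every list, the marker lists included, stand beside 9.29% of all genes tested called higher and 0.935% called lower. In every list, the marker lists included, in which limma called none lower the count lower at an unadjusted p under 0.05 was also 0. Of 13 genes of microfibrils, latent TGF-beta binding proteins (LTBPs), fibulins and EMILINs, 10 were tested, 5 were called higher and none lower. Ltbp2, whose protein competes for binding sites on fibrillin-1, read 0.31 FPKM in CL5, 0.50 in CL6 and 0.41 in CL7, against 1.61 in FL2, 6.39 in FL5 and 4.51 in FL12 (log2 fold change 2.89, adjusted p = 0.00703). Ltbp4, which takes part in elastogenesis with fibulin-5 and was the most abundant of the list over all rats though below Mfap3 in the mean of the CL group, read 2.76, 4.49 and 3.28 FPKM in the CL rats against 7.76, 10.99 and 12.78 FPKM in the FL rats (log2 fold change 1.55, adjusted p = 0.00608). Ltbp3, Ltbp1 and Emilin2 had log2 fold changes of 1.88, 1.84 and 1.70. Of the 10 genes tested, called or not, 9 had every FL value above every CL value, beside 35.7% of all genes tested. Without FL2 the count called higher was 8, and with quantile normalization it was 3.

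Elastin becomes insoluble only when lysyl oxidases cross-link it. Of 12 genes of cross-linking and assembly, all tested, 5 were called higher and none lower. Loxl1, the lysyl oxidase that is directed to elastic fibres, read 0.21 FPKM in CL5, 0.59 in CL6 and 0.23 in CL7, against 1.84 in FL2, 4.10 in FL5 and 6.34 in FL12 (log2 fold change 3.18, adjusted p = 0.00614). Adamtsl2, which encodes a glycoprotein that binds LTBPs and fibrillin, read 2.19, 2.27 and 1.81 FPKM in the CL rats against 8.88, 17.03 and 25.80 FPKM in the FL rats (log2 fold change 2.86, adjusted p = 0.00368). Both genes had FL2 as the lowest FL rat and no overlap between the groups. Fkbp10, a prolyl isomerase gene of the endoplasmic reticulum, and Loxl2 had log2 fold changes of 2.33 and 1.29, and the remaining call, Adamts10, had a log2 fold change of 1.14. Furin, a proprotein convertase gene and the most abundant of the list, read 58.71 to 70.09 FPKM in the CL rats against 59.74 to 67.43 FPKM in the FL rats. Lox, named after its values were seen, read 0.88, 3.14 and 2.31 FPKM in the CL rats against 1.59, 5.86 and 5.71 FPKM in the FL rats. FL2 lay inside the CL range for Lox, and the gene was not called (log2 fold change 0.98, adjusted p = 0.26). With quantile normalization the count of the list was 3.

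Elastic fibres are degraded by metalloproteinases, cathepsins and serine elastases. Of 12 such protease genes, 10 were tested, 5 were called higher and 1 lower. Mmp12, macrophage elastase, read 0.02 FPKM in CL5, 0.19 in CL6 and 0.13 in CL7, against 4.02 in FL2, 24.52 in FL5 and 12.82 in FL12 (log2 fold change 5.77, adjusted p = 0.00257). Mmp2, gelatinase A, read 2.77, 3.36 and 2.54 FPKM in the CL rats against 10.52, 19.23 and 20.83 FPKM in the FL rats (log2 fold change 2.45, adjusted p = 0.00236). All FL rats were far above the CL rats in both genes. Mmp7, matrilysin, was called higher, was listed at 0 in the 3 CL rats and read 0.21 FPKM in FL2, 0.54 in FL5 and 0.27 in FL12. It reached the mean of 0.1 FPKM for testing only through the FL group. The count of the list called higher was 4 with a pseudocount of 1, a mean of at least 1 FPKM or median scaling. It was also 4 without CL5, CL6, CL7 or FL5, and 7 with no fold limit. Cela1, an elastase gene of the chymotrypsin-like family, went the other way, from 2.64, 2.74 and 2.24 FPKM in the CL rats to 0.06, 0.22 and 0.18 FPKM in the FL rats (log2 fold change -3.44, adjusted p = 0.00165). The other calls were the cathepsin genes Ctsk and Ctss, with log2 fold changes of 1.71 and 1.22. Ctsb was the most abundant over all rats, at 161 to 170 FPKM in the CL rats against 262 to 338 FPKM in the FL rats, with a fold change below 2. In the CL group the mean of Ctsl was above that of Ctsb. Prtn3 was listed at 0 in all rats, and Elane was above 0 only in FL12, at 0.04 FPKM.

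Several of these proteases are made by macrophages, and 5 of 8 macrophage markers were called higher and none lower, namely Trem2, Lyz2, Marco, Cd68 and Csf1r. The summed level of the 8 markers was 95.95 FPKM in CL5, 93.74 in CL6 and 93.83 in CL7, against 243.11 in FL2, 225.75 in FL5 and 158.16 in FL12. Clec4f, a Kupffer cell marker and the most abundant of the list over all rats though below Marco in the mean of the FL group, read 49.90, 43.18 and 48.37 FPKM in the CL rats against 66.59, 57.44 and 26.27 FPKM in the FL rats. The sum was highest in FL2, as was Marco, while Trem2 and Lyz2 were lowest in FL2 among the FL rats, like Mmp12 and Mmp2. By contrast, Cd68, Adgre1, Clec4f, Marco, Csf1r and Cd163 were lowest in FL12 among the FL rats. Of the other proteases called higher, Mmp7 and Ctsk were lowest in FL2 among the FL rats, and Ctss was highest there. Trem2 read 2.30 FPKM in FL2, 5.32 in FL5 and 4.76 in FL12, and Lyz2 read 23.18, 26.25 and 33.98 FPKM. No marker was at 0. The part of macrophages in the protease values was not tested.

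Of 7 genes of protease inhibitors, all tested, 3 were called higher and none lower. A2m, which encodes a broad protease trap, read 0.56 FPKM in CL5, 0.59 in CL6 and 0.59 in CL7, against 10.52 in FL2, 2.46 in FL5 and 3.86 in FL12 (log2 fold change 2.81, adjusted p = 0.00789). Here FL2 was the highest of the FL rats. Timp2 and Timp3, inhibitors of metalloproteinases, had log2 fold changes of 1.32 and 1.18 and no overlap between the groups. Serpina1, which encodes the main plasma inhibitor of neutrophil elastase and was the most abundant of the list, read 3108 to 3229 FPKM in the CL rats against 2815 to 3510 FPKM in the FL rats.

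Microfibrils hold latent TGF-beta, and fibrillin, fibulin-5 and the latency peptides bind integrins. Of 11 genes of integrins and TGF-beta ligands, 10 were tested, 3 were called higher and none lower. Itga8, an integrin subunit gene of mesenchymal cells, read 0.53 FPKM in CL5, 0.43 in CL6 and 0.51 in CL7, against 2.62 in FL2, 6.03 in FL5 and 8.05 in FL12 (log2 fold change 3.13, adjusted p = 0.00371). Tgfb3 read 0.91, 1.18 and 0.80 FPKM in the CL rats against 4.25, 8.10 and 10.85 FPKM in the FL rats (log2 fold change 2.80, adjusted p = 0.00339). In both genes the FL rats stood in the order of Eln, with FL2 lowest and FL12 highest. Tgfb1 read 3.37, 4.01 and 3.78 FPKM in the CL rats against 6.72, 10.80 and 8.54 FPKM in the FL rats (log2 fold change 1.18, adjusted p = 0.00686). Itgb1, the most abundant of the list, read 19.52 to 21.57 FPKM in the CL rats against 27.71 to 38.78 FPKM in the FL rats, with a log2 fold change of 0.71.

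Of 7 matrix reference genes, 6 were tested, 5 were called higher and none lower. Besides Col1a1 and Col3a1 these were Lum, Dcn and Bgn, small leucine-rich proteoglycan genes, with log2 fold changes of 2.44, 2.28 and 1.46. Fn1, the fibronectin gene and the most abundant of the list, read 357 to 408 FPKM in the CL rats against 307 to 546 FPKM in the FL rats, with overlap. Col1a2, the other chain of type I collagen, was listed at only 0.01, 0.02 and 0.01 FPKM in the CL rats against 0.03, 0.18 and 0.16 FPKM in the FL rats, far below Col1a1, and was not tested. Whether the gene model behind these values covers the transcript is in doubt and was not tested.

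The start regions of the genes were read from RefSeq promoters of build GRCr8, from 250 bases before to 50 after the listed transcript start. Of the 10 genes, 6 had an entry, namely Fbn1, Fbln5, Efemp2, Efemp1, Fbln2 and Mfap2, and the other 4 were Eln, Fbln1, Mfap4 and Emilin1. The 6 windows held 58.3% to 71.0% G and C and 14 to 28 CpG, beside medians of 51.7% and 7 over 33469 promoters. TATAAA, searched on both strands like all motifs here, was in none of the 6 windows and in 14.2% of all promoters. GGGCGG was in 5 of the 6 windows, all but that of Fbn1, and in 33.1% of all promoters. CAGAC was in 5 of the 6 windows, all but that of Efemp2, and in 50.1% of all promoters. CCAAT was in the windows of Efemp2 and Fbln5 and in 37.5% of all promoters, GGAATG in that of Fbln5 alone and in 14.2%, and TGANTCA in that of Efemp1 alone and in 7.33%. No matches of different motifs shared a base in the 6 windows, overlapping matches of the same motif were each counted, and a match describes letters in the window, not a site that is used.

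The windows of the 3 called genes with an entry are shown because these genes were all called higher. The windows differ in the GGGCGG motif, marked in capitals on either strand. Fbn1 lies at chr3:133203341-133203640 on the minus strand, Efemp2 at chr1:212211472-212211771 on the plus strand and Mfap2 at chr5:158597478-158597777 on the plus strand. Efemp2 holds 5 matches, Mfap2 holds 1 and Fbn1 holds 0.
Fbn1: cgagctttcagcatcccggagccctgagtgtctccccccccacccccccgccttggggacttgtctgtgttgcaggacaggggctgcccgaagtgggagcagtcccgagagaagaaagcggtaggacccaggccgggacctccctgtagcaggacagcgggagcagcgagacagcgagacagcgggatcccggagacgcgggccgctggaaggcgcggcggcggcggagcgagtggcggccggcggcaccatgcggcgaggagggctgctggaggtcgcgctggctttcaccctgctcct
Efemp2: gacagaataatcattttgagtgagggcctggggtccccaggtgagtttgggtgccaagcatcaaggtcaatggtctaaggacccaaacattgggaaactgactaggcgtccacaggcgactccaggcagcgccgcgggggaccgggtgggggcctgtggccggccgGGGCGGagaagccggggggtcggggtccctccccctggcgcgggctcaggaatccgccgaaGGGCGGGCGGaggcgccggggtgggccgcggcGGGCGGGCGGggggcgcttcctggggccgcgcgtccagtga
Mfap2: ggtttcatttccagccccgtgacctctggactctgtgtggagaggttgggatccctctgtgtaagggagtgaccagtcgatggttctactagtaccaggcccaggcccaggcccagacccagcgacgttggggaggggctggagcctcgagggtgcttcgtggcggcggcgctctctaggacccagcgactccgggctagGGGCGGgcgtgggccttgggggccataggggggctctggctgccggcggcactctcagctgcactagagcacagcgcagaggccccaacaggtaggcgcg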

How the data were processed

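Whole liver RNA of 6 rats was measured by RNA sequencing, and rats were grouped by the disease state in their labels. The authors trimmed reads with the FASTX-Toolkit, aligned them with TopHat2, kept uniquely placed reads and deposited FPKM per gene with 2 decimals. The submitters' processing notes name GRCh38 as the genome, although the gene identifiers are those of the rat, so no position was taken from it. Another 2 columns of values carry no sample's name and were not used. Use of strand in counting is not given in the sources used here, so overlapping genes cannot be told apart.

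FPKM are not counts, so all genes whose mean reached 0.1 FPKM were compared by limma 3.58.1 in R 4.3.3 on log2(FPKM + 0.1), with the trend option for the prior variance and Benjamini-Hochberg adjustment over all of them. The procedure was tested on simulated data. The ratio of Eln to Fbn1 had an exact permutation test. Figures were drawn with matplotlib 3.10.9 in Python 3.11.15. The 10 genes and all lists were chosen with earlier results of these data known. By rule all 10 genes were named, in each further list at most 4 called genes by size of fold change and the most abundant gene, and Col1a1, Col3a1 and Acta2. Any other named gene of a list, and the named cell type markers, were chosen after their values were seen. Alternatives were other pseudocounts, filters, scalings and limma settings, no fold limit, and each rat left out. Total read numbers were not used here, so values carry no counting interval, and errors come from the spread among the 3 rats of a group. Between pairs of rats 0.990% to 2.87% of genes above 0 had identical values, and no pair looked like the same library. The summed level of the stellate cell markers is not reported here.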

Additional observations from a re-analysis of the deposited data

How the results depend on the processing

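Over 15 alternatives Eln, Fbn1, Efemp2 and Fbln1 kept their calls, with highest adjusted p of 0.0264, 0.0365, 0.0215 and 0.0244, each without CL7, and no fold change of the 9 genes changed its sign where it was tested. Efemp1, Fbln2 and Mfap2 had only 14 alternatives, being under a mean of 1 FPKM. Genes called higher among the 10 numbered 4 to 7 when 1 rat was left out (7 without FL2, 4 without FL5), and genes called lower 0 to 1 (Efemp1 without FL12). With a pseudocount of 1 the median log2 fold change of the 9 genes tested was 0.83, with 462 genes higher and 72 lower over all genes. Quantile normalization gave a median of 1.18 and 453 higher and 231 lower, and median scaling gave 826 higher. A mean of at least 1 FPKM, with fewer genes tested, gave 854 higher, and no fold limit gave 2518 higher and 288 lower. Leaving out 1 rat gave 740 (without CL7) to 1831 (without FL2) higher, 745 without FL5, and 81 (without CL6 and without CL7) to 160 lower. The cause of these changes in the counts was not tested. The median of the 9 genes was 1.5 to 1.78 and the difference in log2 ratio of Eln to Fbn1 0.39 to 0.64 with 1 rat left out. Mfap4, tested only without a filter, was under the fold limit and not called. Values near 0.1 FPKM, as in Mfap2 and Mfap4, rest on few reads. No paired analysis was made because no pairing of rats between the groups is described. The number shared by CL5 and FL5 marks no pair.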

Other observations

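Endothelial and biliary cells border on the matrix described above, and their markers were read from the same limma comparison. Of 6 endothelial markers tested, 1 was called higher, Vwf, which encodes von Willebrand factor, and none lower. Vwf read 2.36 FPKM in CL5, 2.59 in CL6 and 2.94 in CL7, against 3.72 in FL2, 7.43 in FL5 and 6.06 in FL12, without overlap and with FL2 as the lowest FL rat. The summed level of the list, led by Kdr over all rats and by Lyve1 in the FL group, was 66.89, 67.96 and 60.24 FPKM in the CL rats against 82.82, 73.89 and 80.36 FPKM in the FL rats. Of 6 cholangiocyte markers, 1 was called higher, Spp1, which encodes osteopontin and is also made by other cells, and none lower. Spp1 read 0.37, 2.81 and 0.74 FPKM in the CL rats against 7.34, 60.59 and 31.12 FPKM in the FL rats. The summed level of that list was 5.75, 10.56 and 6.32 FPKM in the CL rats against 12.72, 68.65 and 42.38 FPKM in the FL rats, but without Spp1 it was 5.38, 7.75 and 5.58 FPKM against 5.38, 8.06 and 11.26 FPKM, and the groups overlapped. Log2 fold changes of the others were -0.82 for Krt7, -0.01 for Krt19, 0.33 for Epcam, 1.07 for Sox9 and 1.46 for Cftr, with none of these 5 called. In both lists no gene had a negative fold change at an unadjusted p under 0.05, a count of 0.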
